A study of Danio rerio with 50 samples.

Results

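Clade B odorant receptor (OR) genes are the zebrafish OR genes of subfamilies or115 to or128, 1 of the 3 homology clades into which the study divided the OR repertoire. The members were taken by name from the 2 deposited count tables, with zgc:152857 added because the study lists this gene as or119-1. This gave 54 genes of 29033, next to 57 genes of clade A and 32 of clade C. They fall into 13 subfamilies with 1 to 13 genes each, and no row carried an or120 name.

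ORs are G protein-coupled receptors in the membrane of olfactory sensory neurons (OSNs). A maturing OSN chooses a single OR gene from the repertoire and transcribes it at a high level while the other OR genes stay silent. The chosen receptor sets the odorants that the cell detects. The choice is also coordinated with the place in the olfactory bulb to which the axon grows. In ciliated OSNs an activated OR couples through the G protein subunits encoded by gnal and gng13b to adenylyl cyclase and to cyclic nucleotide-gated channels such as the one containing Cnga4. In zebrafish reporter lines, OSNs labelled from clade A and clade B genes sent their axons to the central zone (CZ) protoglomerulus, an early target region in the bulb.

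The data were single-cell and bulk transcriptomes of OSNs from zebrafish embryos of strain Tu/TLF at 48 hours post fertilization. Single cells carried the OMP:RFP transgene, in which the promoter of olfactory marker protein (OMP) drives a red fluorescent protein. They were sorted by fluorescence before capture on Fluidigm C1 chips. Per the study they came from independent sorts and C1 runs, and the libraries of each run were prepared separately. The labels give the spike-ins of each cell but not its run. Fluidigm spike-ins were added to 14 of these cells and ERCC spike-ins to 33, and each cell was its own library, so that no cell was shared between libraries. The 3 bulk libraries held cells pooled from many embryos and sorted for OMP:RFP together with or111-7:IRES:GAL4;UAS:citrine, a transgene driven by the promoter of or111-7, a clade A gene, and an enhancer near its cluster. Its labelled OSNs project to the CZ and, aberrantly, to the LG1 protoglomerulus, but per the study those that carry OMP:RFP as well project to the CZ alone. Each bulk library came from a sort of its own. Neither the labels nor the files give the embryos behind each cell. Cells are therefore described one by one, and no test between groups of cells was made.

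Cells had total counts of 6951519 to 30192554, and the bulk libraries had 2651985, 6250589 and 5320049. A count of 0 allows up to 3 counts, or at most 0.432 CPM (the count divided by the total of the library, times 1e6) in the shallowest cell. Each of the 4 defining markers of mature ciliated OSNs (ompb, gng13b, gnal and cnga4) reached 100 counts in 38 to 40 of the 47 cells. In bulk, ompb was at 392, 158 and 168 CPM, and the immature marker gng8 was also present, from 32.1 to 277 CPM. Markers of other cells differed between the spike-in sets. The summed level of the 4 embryonic globin genes read for blood ranged from 0.0938 to 848 CPM in Fluidigm cells and was 0.0 CPM in each ERCC cell. In the bulk libraries it was 45.2, 9.44 and 8238 CPM. The part of blood RNA in the results below was not tested.

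A clade B gene was the most abundant OR gene in 10 of the 29 cells that had any OR gene at 100 counts or more. They were 3 of the 11 Fluidigm cells with such an OR (27.3%) and 7 of the 18 ERCC cells (38.9%), or 21.4% of all 14 and 21.2% of all 33 cells. The difference between the sets was not tested. Clade A led in 9 cells and clade C in 10. The 10 cells had chosen 9 different genes, 8 of which led in a single cell. Only or125-4 led in more, with 1 Fluidigm and 1 ERCC cell.

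Of the 54 clade B genes, 11 reached 100 counts in at least 1 cell, the minimum that the study used for detection, compared with 23.1% of all OR genes and 48.8% of all genes. At least 1 count was seen for 38 of the 54, against 87.7% of all genes. Of these, 27 stayed under 100, and the remaining 16 genes were at 0 in every cell. The chosen genes came from 6 subfamilies. Subfamily or125 led in 3 cells, or115 and or119 in 2 each, and or116, or121 and or128 in 1 each. The other 7 subfamilies, or117, or118, or122, or123, or124, or126 and or127, hold 17 genes and led in none of the 29 cells with an OR, which allows a share of up to 10.3% of such cells for each, from the number of cells alone and as if they were independent. The chosen genes are the dark squares in the heat map of counts, where each of the 10 cells stands out from its row and column.

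**Figure D1:**
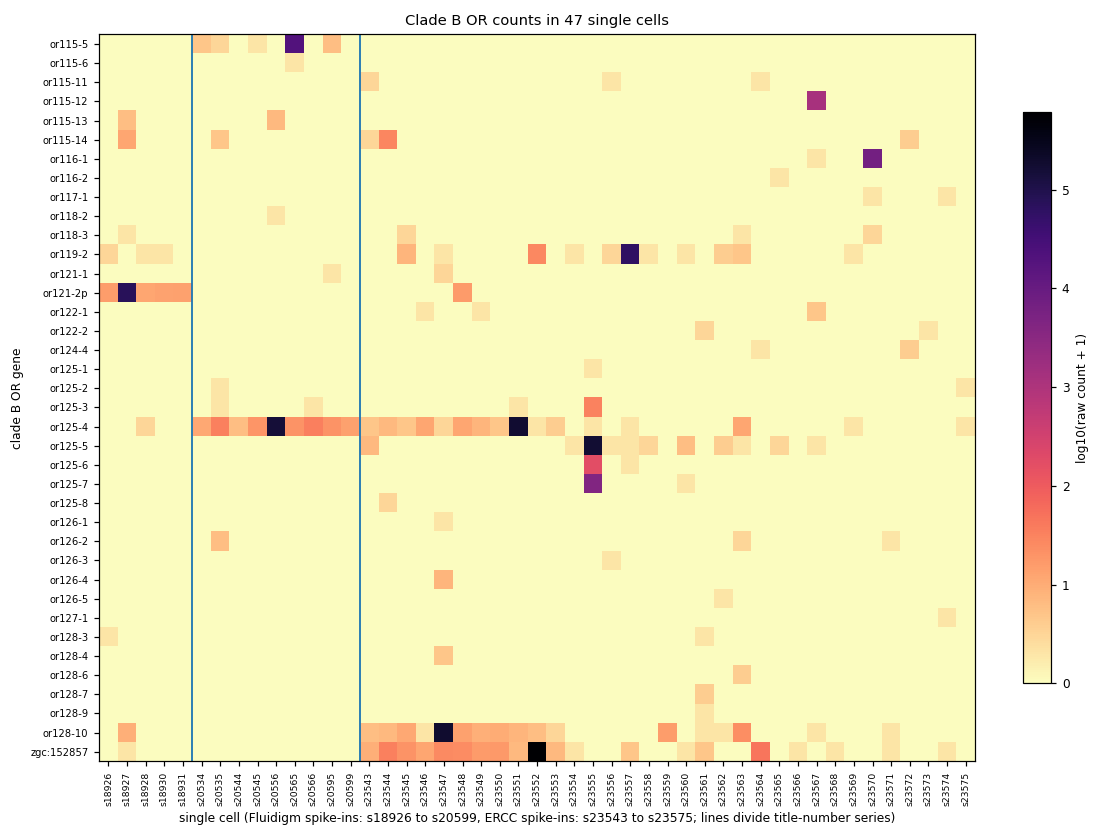
Raw counts of the 38 clade B genes with at least 1 count in a cell (rows) in 47 single cells (columns, in the order of their title numbers), coloured by log10(count + 1). A few cells hold up to 605134 counts of 1 gene, and faint stretches of the same row, such as or121-2p in cells s18926 to s18931 and zgc:152857 in s23543 to s23553, are the counts under 100 described below.

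RefSeq (assembly GRCz12tu) lists 47 of the 54 genes, and by their positions they were grouped here into 4 blocks of neighbouring genes. A new block began at a change of chromosome or where the starts of successive members lay more than 1 Mb apart. The first block holds or121, or122, or126, or127 and or128, the second or116 to or119, the third or123 to or125, and the fourth or115. The genes chosen by the 10 cells were spread over all 4, with 2, 3, 3 and 2 cells. The 2 cells of the or115 block were s20565 and s23567, each set apart below by its markers or by another receptor. Without them the or115 block led in no cell. In the or116 to or119 block the chosen genes lay at both ends. or116-1 is the first gene of the listed order, zgc:152857 and or119-2 are the last, and the 3 genes of subfamily or118 between them had at most 2 counts in any cell.

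zgc:152857, or or119-1, had the most reads, with 605134 counts or 31584 CPM in cell s23552. It took 99.993% of the OR reads of this cell (95% exact binomial interval 99.991 to 99.995%, which like all intervals here covers counting error only). Its neighbour or119-2 led in s23557 with 59427 counts, equal to 6548 CPM and 99.9% of OR reads. Each of the 2 cells carried the gene of the other as a trace. s23552 had 26 counts of or119-2, and s23557 had 4 counts of zgc:152857.

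Subfamily or125 held the only clade B gene chosen by more than 1 cell. or125-4 was at 5153 CPM in the Fluidigm cell s20556 and at 24372 CPM in the ERCC cell s23551, a ratio of 4.73 with a single cell in each set. In s23551 it made up 99.97% of OR reads, whereas in s20556 its share was 96.3% (96.2 to 96.4%), the lowest among the 10 cells. The remainder in s20556 was mostly clade C and clade A, with or133-8 at 145 CPM, or106-7 at 49.0 CPM and or133-7 at 5.07 CPM. No other clade B gene exceeded 6 counts there.

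or125-5 led in s23555 with 8353 CPM and 97.4% of OR reads. This cell held the only clade B genes that were at 100 counts or more together. or125-7 had 4174 counts, or 207 CPM, and or125-6 had 169 counts, or 8.37 CPM, which makes 3 pairs in 1 cell, all within the subfamily. or125-3 followed with 30 counts. In the listed gene order or125-7, or125-5, or125-4 and or125-3 are consecutive. or125-4, which lies between or125-5 and or125-3, had 1 count in this cell. Near-identical OR genes can share reads in the counting, and the sequences were not compared here, so the levels of or125-7 and or125-6 in s23555 are less certain than that of the subfamily.

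The count of or125-7 was 2.48% of that of or125-5 in s23555. In the bulk libraries the same ratio was 156%, 0.645% and 7.02%, from 172, 1 and 16 counts of or125-7. The ratio thus differed between the bulk libraries, in which many cells were pooled. Whether these genes shared reads in s23555 was not tested.

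Among all 29 cells with an OR, pairs of OR genes at 100 counts or more numbered 12 within clade A, in 3 cells, and 3 within clade C, in 3 cells. Of these, 5 of the 12 and 2 of the 3 were within a subfamily. The cells with a clade C pair include s20556, which was led by clade B. Clade A genes and clade C genes made 3 pairs with each other, in 2 cells. A clade B gene was paired with a gene of another clade 4 times, in 2 cells. These were the 3 genes of s20556 named above and or111-11, a clade A gene, at 123 counts or 9.58 CPM in s18927. Among the 10 cells led by clade B, s20556 and s18927 also had the highest summed globin level, at 848 and 647 CPM. s20565 had 21.9 CPM and the ERCC cells 0 CPM, while the median of all Fluidigm cells was 241 CPM. Whether the pairs and the globin RNA are linked was not tested. In 7 of the 10 cells led by clade B the leading gene was the only OR at 100 counts.

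or121-2p led in the Fluidigm cell s18927 with 74068 counts, equal to 5767 CPM and 99.7% of OR reads. The suffix p marks a pseudogene, and RefSeq lists the gene as a pseudogene. No intact OR gene of this cell exceeded 123 counts, and its neighbour or121-1 had 0. The cell also held 4932 counts, or 384 CPM, of olfcg1, a gene of the OlfC family of receptors that are related to the V2R pheromone receptors of mammals. Its count was at least 100 in no other cell. olfcg1, and taar14h below, fall outside the rule for named genes and were picked with their values in view.

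The single clade B cell of subfamily or128 was s23547, in which or128-10 reached 10130 CPM and 99.9% of OR reads. In the listed order or128-10 lies at the end of its block and is separated from the other or128 genes by 4 genes of or126. The highest count of another or128 gene in this cell was 4, for or128-4.

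or116-1 led in s23570 with 6607 counts, equal to 706 CPM and 98.97% of OR reads. Subfamily or115, the largest of the clade with 13 genes, led in s20565 through or115-5 (20442 counts, 1036 CPM, 99.6% of OR reads) and in s23567 through or115-12. The latter had the fewest reads of the 10 leading genes, with 1236 counts or 98.4 CPM. Its share of the OR reads of the cell was nevertheless 97.1% (96.0 to 97.9%), because no other OR gene exceeded 16 counts.

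In s23567 the most abundant chemoreceptor was not an OR. taar14h, a trace amine-associated receptor (TAAR) gene, had 164074 counts or 13058 CPM, 133 times the count of or115-12. In all, 6 taar14 genes had 10 counts or more in this cell, led after taar14h by taar14e with 382 counts and taar14a with 197. TAARs are a separate receptor family, and in mouse they are chosen by OSNs largely distinct from those that choose ORs. Outside s23567 and s18927, no TAAR, olfc or ora gene of the 47 cells exceeded 12.4 CPM. With the most abundant gene taken over ORs, TAARs, olfc and ora genes together, an alternative added after these values were seen, clade B led in 9 cells. The plot of receptor levels shows s23567 as the only 1 of the 10 cells in which the highest non-OR receptor lies to the right of the leading OR.

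**Figure D2:**
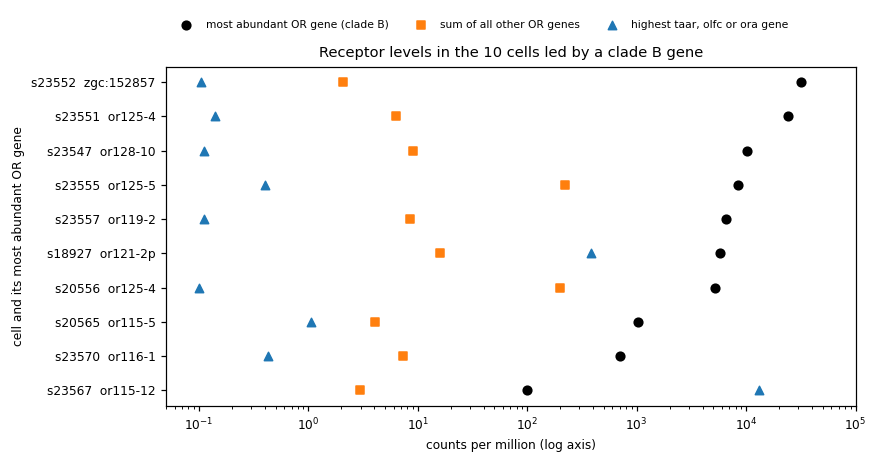
Level in CPM (log axis) of the most abundant OR gene (circles), of all other OR genes summed (squares) and of the highest taar, olfc or ora gene (triangles) in the 10 cells led by a clade B gene. The circles run from 98.4 to 31584 CPM, and the triangle exceeds the circle in s23567, where taar14h is at 13058 CPM.

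Over the 10 cells the level of the leading gene was lowest at 98.4 CPM, had a median of 6158 CPM and was highest at 31584 CPM. These values are not scaled for gene length and are no ranking of the genes. Its share of OR reads had a median of 99.7% and exceeded 99% in 6 cells.

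The cells led by clade B differed in the markers of mature OSNs. gnal, the olfactory G protein alpha subunit, reached 100 counts in 9 of the 10 cells, ompb and cnga4 in 8, and gng13b in 7. adcy3b, an adenylyl cyclase, did so in 5 of the 10 and in 16 of all 47 cells. ano2, a calcium-activated chloride channel, did so in 4 of the 10 and in 26 of the 47. Apart from s20565, the cells under the minimum were s23567 for ompb (6.92 CPM), s23557 for cnga4 (0.882 CPM), and s23551 and s23557 for gng13b (8.55 and 4.74 CPM). cnga2, the remaining gene of the list, was not matched. The immature markers gng8 and gap43 stayed under 100 counts in all 10 cells and did not exceed 0.159 and 0.331 CPM. neurod1, a progenitor marker, was however at 414 CPM in s23547, and it reached 100 counts in only 2 of the 47 cells.

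Only s20565, led by or115-5, was low in all 4 defining markers. There ompb was at 0.507 CPM, gng13b at 0.659, gnal at 0.709 and cnga4 at 0.507, and gng8 and gap43 were at 0. Among the 47 cells 1 other had these 4 markers under 1 CPM, and that cell had no OR at 100 counts. s20565 held 942 counts, or 47.7 CPM, of trpc2b, which encodes a channel of microvillous OSNs and reached 100 counts in 3 of the 47 cells. It also held 1598 CPM of s100z, a calcium-binding protein gene used as a marker of crypt neurons. s100z was common in these data, at 100 counts or more in 17 of the 47 cells and at 624 to 1542 CPM in bulk. It was high as well in 2 other cells led by clade B, at 361 CPM in s23547 and 1330 CPM in s23551. Both had ompb and gnal above 100 CPM. In s20565 ora4, a receptor gene of crypt neurons, was at 0 CPM, and gnaia, the other microvillous marker of the list, was at 0.101 CPM. ano2, of the mature list, was present in s20565 with 1004 counts, or 50.9 CPM. The lens marker cryba2a was at 12.6 CPM in s20565, the only 1 of the 47 cells in which it reached 100 counts. When the 2 cells with ompb, gng13b, gnal and cnga4 all under 1 CPM were left out, an alternative added after seeing the data, clade B led in 9 cells and 10 of its genes reached 100 counts.

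Of a list of 16 zebrafish homologues of genes known from mouse to take part in OR choice or in its feedback, 15 were matched. atf5a, a homologue of the mouse transcription factor Atf5, which is translated once an OR is expressed, reached 100 counts in all 10 cells, from 38.7 to 5608 CPM, and in 44 of all 47. The Olf/EBF transcription factor genes ebf1b and ebf3a did so in 8 cells each, against 37 and 39 of 47, and ebf1a in 6, against 33. ldb1a, encoding the cofactor of the homeodomain protein Lhx2, did so in 7, against 29. The lhx2 genes themselves were patchy. lhx2b reached 100 counts in s20556, s23552 and s23570, at 575, 282 and 918 CPM, and was under 1 CPM in the other 7, while lhx2a did so in 1 cell, s23567. Over all 47 cells they reached it in 19 and 11. kdm1a, a histone demethylase gene, reached the minimum in 4 cells, against 18 of 47, and emx2 and eif2ak3 in 1 each, against 6 and 14. emx1, emx3, ebf2, ebf3b and atf5b did so in none of the 10, against 3, 2, 5, 1 and 2 of all 47. No gene of the list was thus shared by all cells at this minimum except atf5a, which was also at 100 counts in most cells not led by clade B.

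Low counts of clade B genes were found in every cell. Counting each gene in each cell, there were 146 detections under 100 counts, with a median of 2 counts and a maximum of 45, and 61 of them were a single count. These traces were not spread evenly. Of them, 90 (61.6%) were of a gene that was at 100 counts or more in a different cell with the same spike-ins, 6 were of a gene high only in the other set, and 50 were of genes high in no cell. Expressed per possible combination of gene and cell, traces were present in 27.5% of 327 combinations with a high cell in the same set, in 3.37% of 178 with a high cell in the other set only, and in 2.47% of 2021 for genes never high. The first kind held 78.5% of the 871 trace reads.

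**Figure D3:**
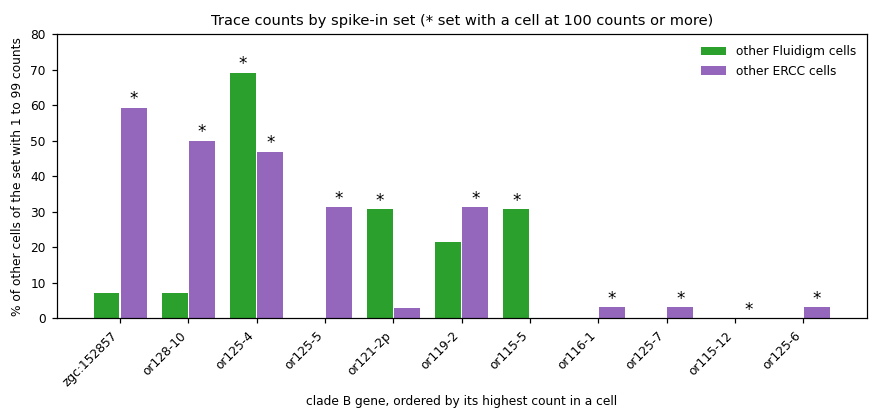
Share of the other cells of each spike-in set (y axis, percent) with 1 to 99 counts of each of the 11 clade B genes that reached 100 counts (x axis, ordered by highest count), where stars mark sets with a cell at 100 counts or more. zgc:152857 was found in 59.4% of other ERCC cells and 7.14% of Fluidigm cells, whereas or115-12 was found in neither set.

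The genes with the most reads in 1 cell were among those most often found as traces. zgc:152857 was present in 19 of 32 other ERCC cells and in 1 of 14 Fluidigm cells, and or128-10 in 16 of 32 and 1 of 14. For or125-5, with 168588 counts in its cell, the numbers were 10 of 32 and 0 of 14. Traces did not follow the level throughout. or119-2, with 59427 counts in its cell, was also found in 10 of 32 other ERCC cells, and in 3 of 14 Fluidigm cells. or115-5, with 20442 counts, was found in 4 of 13 other Fluidigm cells. By contrast or116-1, with 6607 counts in its cell, was found in 1 of 32 other ERCC cells, and or115-12, with 1236 counts, in 0.

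Within a spike-in set, traces of several genes also differed between ranges of the numbers in the sample titles. or121-2p was present, at 11 to 14 counts, in all 4 other cells of s18926 to s18931 and in 0 of the 9 cells of s20534 to s20599, although both ranges belong to the Fluidigm set. or125-4 was present in all 8 other cells of s20534 to s20599, at 5 to 35 counts, and in 1 of 5 cells of s18926 to s18931. or115-5 was present in 4 of 8 other cells of the former range and in 0 of 5 of the latter. Over all genes the share of traces with a high cell in the same title range was 61.0%, next to 61.6% by spike-in set. For this share all ERCC cells formed a single range. Only the Fluidigm cells were regrouped, so that the share could move only through these.

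In the ERCC set, each of zgc:152857, or128-10 and or125-4 was found in all 10 other cells of s23543 to s23553. Among the 22 cells of s23554 to s23575 they were found in 9, 6 and 5. The cells in which the 3 genes were high in this set, s23552, s23547 and s23551, belong to the first of these ranges. or125-5, which was high in s23555, was found in 1 of 11 cells of the first range and in 9 of 21 other cells of the second. or119-2, high in s23557 of the second range, was found in 3 of 11 cells of the first, with 34 reads in all, and in 7 of 21 other cells of the second, with 13 reads. Of the 34 reads, 26 were in s23552, the cell led by zgc:152857, the neighbour of or119-2. These ERCC ranges were drawn with the values in view. What the title numbers stand for is not given in the sources used here, and their part in the traces was not tested.

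In all, 56 of the 146 traces had no high cell in their set. or121-2p had 15 counts in the ERCC cell s23548, and or115-14, which was high in no cell, had 27 counts in s23544 and 11 in s18927. or119-2, high only in an ERCC cell, had 1 or 2 counts in 3 of the 5 cells of s18926 to s18931. Because of the traces, low counts were not read as choice.

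In the 18 cells without an OR gene at 100 counts, the most abundant OR was of clade B in 6, and in each of these it was zgc:152857, at 6 to 45 counts. Of these 6 cells 5 belong to s23543 to s23553, the range in which every other cell carried a trace of this gene. That range was drawn with these traces in view, and the 5 cells are among those that carried them. Their place in it is therefore no separate observation. No OR gene exceeded 70 counts in any of the 18 cells, and their total counts (9870725 to 28926256) covered much of the range of the cells led by clade B (7130690 to 30192554). In cells led by clade A or C no clade B gene exceeded 35 counts.

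In the bulk libraries clade B genes summed to 974, 382 and 949 CPM, or 768 ± 335 CPM (SD, n = 3). Their share of all OR counts was 53.5% (52.1 to 54.9%), 33.9% (32.8 to 35.1%) and 38.9% (38.1 to 39.8%), a mean of 42.1 ± 10.2% (SD, n = 3). Clade A took 46.1 ± 5.23% and clade C 11.8 ± 4.94% (SD, n = 3 each). The clade B share was above that of clade A in library 1 and below it in libraries 2 and 3, and it was above that of clade C in all 3. Library 1 was the shallowest, with 2651985 counts. In bulk samples fewer cells with a receptor and less RNA of it per cell cannot be told apart. No test was made of bulk against single cells, which came from different sorts and were selected differently. Single cells were sorted for OMP:RFP alone, bulk cells also for the transgene with the promoter of a clade A gene. Per the study this transgene drives that OR gene itself, which had 260, 217 and 179 counts in libraries 1, 2 and 3. How far this selection shaped the clade shares was not tested.

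Counts were present in all 3 libraries for 17 of the 54 clade B genes (31.5%), compared with 35.3% of all genes and 25.2% of all OR genes. With at least 3 counts required in each library they were 10. A count in at least 1 library was present for 38 of the 54 genes, and 16 had none. A count in at least 1 library was also present for 36 of the 57 genes of clade A and 17 of the 32 of clade C. The same share over all genes was not computed, so the 38 genes are not read as particular to clade B. At 100 counts or more in at least 1 library were 14 clade B genes (25.9%), against 29.8% of all genes.

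The 5 clade B genes with the highest mean were or125-4, or125-8, or115-12, or127-1 and zgc:152857. This list depended on single libraries. Without library 1, or115-7 (65.4 CPM) took the place of zgc:152857 (38.2 CPM), and or125-8 (96.6 CPM) and or115-12 (94.2 CPM) ranked above or125-4. Without library 3, or125-5 (33.1 CPM) and or125-7 (32.5 CPM) took the places of or115-12 (25.6 CPM) and or127-1 (30.6 CPM). or125-4 was at 629, 83.8 and 99.999 CPM, and it was the most abundant of all OR genes in library 1. It took 64.5% of the clade B counts of library 1 (62.7 to 66.4%), 21.9% of library 2 (20.3 to 23.6%) and 10.5% of library 3 (9.71 to 11.4%). Its mean was 271 ± 310 CPM (SD, n = 3), and 91.9 CPM without library 1. Its mean thus rests on library 1.

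or125-8, by contrast, was highest in library 3, at 36.6, 47.996 and 145 CPM, and there it was the leading clade B gene. or127-1, the only gene of its subfamily, followed the same order at 23.8, 37.4 and 94.0 CPM. zgc:152857 was at 77.3, 12.5 and 63.9 CPM, lowest in library 2.

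or115-12 was at 1.13 CPM (3 counts) in library 1 and at 50.1 and 138 CPM in libraries 2 and 3. or115-7, of the same block, was at 0.754 CPM (2 counts), 45.4 and 85.3 CPM. Subfamily or115 as a whole summed to 8.67, 118 and 344 CPM, so that library 1 lay far below the others. The or115 mean of 157 ± 171 CPM (SD, n = 3) became 63.3 CPM without library 3. Subfamily or125 was instead highest in library 1, with 813, 167 and 357 CPM, and its mean of 445 ± 332 CPM (SD, n = 3) became 262 CPM without that library. Library 3, in which or115 was highest, was also the library with 8238 CPM of globin RNA.

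Among the other subfamilies, or119 was at 93.5, 28.96 and 80.6 CPM and or128 at 35.1, 13.8 and 27.3 CPM, and in both of these library 2 was lowest. or116 (0.0, 2.08 and 25.4 CPM) and or117 (0.0, 0.160 and 6.77 CPM) were almost confined to library 3, where 124 of the 135 or116 counts were of or116-2. or118, or122 and or123 were at 0 in all 3 libraries, where a count of 0 allows up to 3 counts, or 1.13, 0.480 and 0.564 CPM.

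**Figure D4:**
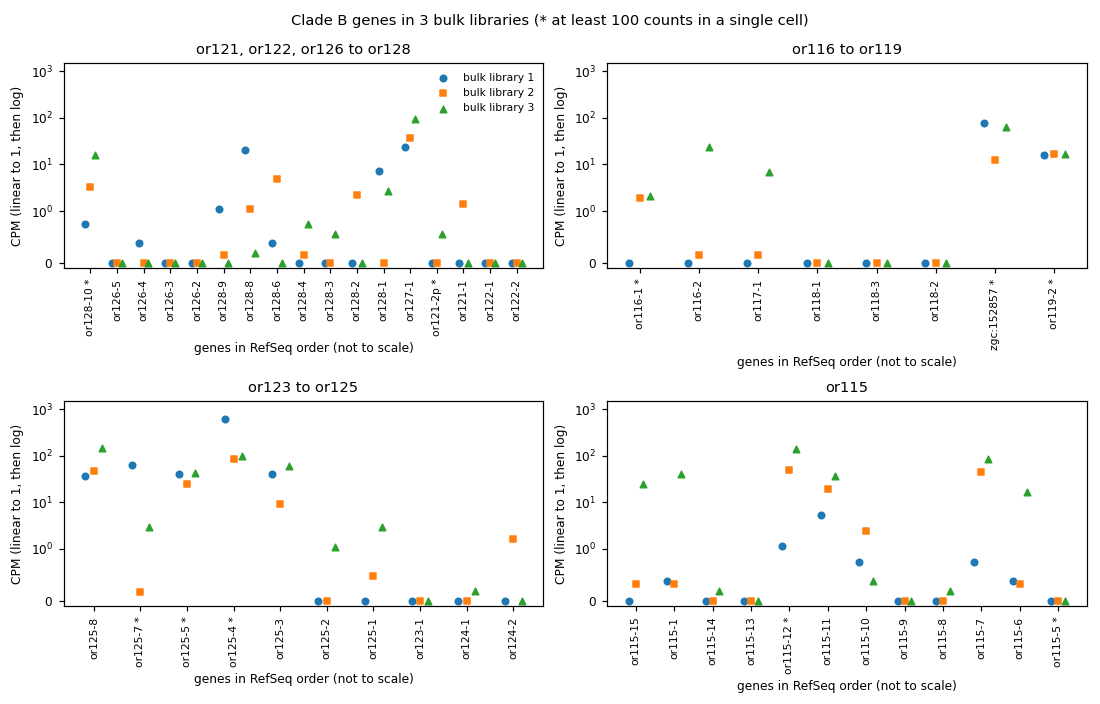
CPM (linear up to 1, logarithmic above) of the 47 clade B genes listed by RefSeq in the 3 bulk libraries, in the order of the genes within each block and not to scale, where stars mark genes with at least 100 counts in a single cell. or125-4 reaches 629 CPM in library 1, and or115-5 and the or118 genes lie at 0 in all 3.

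Genes at 100 counts in single cells and genes at 100 counts in bulk overlapped in part. The former include or125-6 and or125-7, which led in no cell. Of the 11 genes at 100 counts in a cell, 6 (54.5%) were at 100 counts in at least 1 bulk library, compared with 53.7% of all genes and 51.5% of OR genes that were so in a cell. They were or125-4, or115-12, zgc:152857, or125-5, or125-7 and or119-2. The minimum is in raw counts, and the bulk libraries were shallower than every cell, so that passing it depended on depth. Cells and bulk also differed in sorting, since only the bulk cells were selected for the clade A transgene. Among these 6, or119-2 varied least between libraries, at 16.2, 16.5 and 16.7 CPM. It passed only in library 2, with 103 counts, next to 43 and 89 in libraries 1 and 3. or128-10, at 10130 CPM in its cell, was at 0.754, 3.36 and 15.6 CPM in bulk, the last from 83 counts. or116-1 was at 0.0, 1.92 and 2.07 CPM. or125-6 had 1 count in library 1 and none in the others.

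or115-5 and or121-2p, which led in s20565 and s18927, were nearly absent from bulk. or115-5 had 0 counts in all 3 libraries, and or121-2p had 0, 0 and 3 counts. s20565 is the cell low in 4 mature markers, and or121-2p is the pseudogene, both described above. The bulk cells were selected for the clade A transgene, and the part of this selection in the low counts was not tested.

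In the opposite direction, 8 of the 43 genes that stayed under 100 counts in every cell (18.6%) reached 100 counts in at least 1 bulk library, compared with 6.92% of all such genes and 17.3% of such OR genes. They are or125-8, or127-1, or115-7, or125-3, or115-11, or115-1, or115-15 and or116-2. Apart from or125-8 and or127-1 these, like or115-14 above, were named with their values in view. Of the 8 genes, 4 are of subfamily or115. It holds 13 of the 54 members, and 2 of these 13 reached 100 counts in a cell. or115-1, or115-15 and or116-2 passed in library 3 alone, with 216, 135 and 124 counts. In libraries 1 and 2 they had at most 2 counts. The same minimum of raw counts, at unlike depths and with unlike sorting of cells and bulk, was used here. or125-8 had at most 2 counts and or127-1 at most 1 count in any cell, and or115-7 had none. Finally, 5 genes were at 0 in all 47 cells and all 3 bulk libraries, or115-2, or115-9, or118-1, or123-1 and or126-7. The same share over all genes or all OR genes was not computed, so this count is not read as particular to clade B. or115-2 and or126-7 are also among the 7 genes not matched in RefSeq.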

How the data were processed

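The authors deposited raw read counts per gene, without normalization, for 47 single cells and 3 bulk libraries. Per the methods, single-cell reads were trimmed, aligned to GRCz10 with STAR and assigned to genes with VERSE. The labels of the samples name HTSeq instead. Read processing of the bulk libraries is not described separately, and their amplification is given as SMARTer in the labels and as T7-based in the methods. 0 per-sample columns were left unused, and no pair of cells had identical counts.

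Rows were selected by name and counts were scaled to the library total (CPM) in Python 3.11.15 with pandas 2.3.3. Shares of reads carry exact (Clopper-Pearson) 95% binomial intervals from scipy 1.17.1. Since reads carry no molecular identifiers, these and the limit of 3 counts for a 0 cover counting error only. Depth, at 6951519 counts or more per cell, sets that limit. RefSeq (assembly GRCz12tu, another build) gave current names and the order of neighbouring genes only. Members and gene lists were chosen with earlier results of these data known. Genes were named if they reached 100 counts in a cell or were among the 5 highest in bulk. Genes of the other clades were named if they reached 100 counts in a cell led by clade B. Since cells of a sort are not replicates and the labels give no biological groups, 0 tests between groups were made. Other minimums, sets of cells and genes and leaving out each bulk library were tried as alternatives. Markers of terminal nerve, progenitors and lens were read as well. In cells led by clade B, gnrh3 reached at most 0.661 CPM, neurod1 414 CPM (s23547), ascl1a and neurog1 0 CPM and cryba2a 12.6 CPM (s20565).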

Additional observations from a re-analysis of the deposited data

How the results depend on the processing

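The 10 cells led by clade B were 10 with a minimum of 10 CPM or with subfamily sums, 9 without zgc:152857, 8 at 1000 CPM (added after seeing the data), 3 among Fluidigm and 7 among ERCC cells alone. The 11 genes at 100 counts became 13 at 10 counts, 10 at 10 CPM, and 3 and 9 in the sets alone. Each set holds only part of the cells, and the difference between the sets was not tested. The 3 pairs of clade B genes in a cell were 20 at a minimum of 10 counts, which takes in traces, and 1 at 10 CPM. The share of traces from genes high in the same set rose from 61.6% to 76.8% when 3 counts were required, and was 60.5 to 61.3% under the other alternatives, those by title series and without s23548 added after seeing the data. The median share of the leading gene stayed between 99.6 and 99.9%. In bulk the mean clade B share was 42.1% with a minimum of 3 counts and, as scaling a library cannot move its share, with size factors, while the share pooled over libraries was 40.4% from raw counts and 44.8% with size factors. The mean was 49.6% without subfamily or111, and 36.4 to 46.2% with each library left out. The 17 genes counted in all libraries were 10 at 3 counts and 18 to 24 with each library left out. No paired analysis was possible because no result comes from a test and the labels number no replicates. Bulk depth limits genes under about 1 CPM.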
